A study of Homo sapiens with 14 samples.

Results

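Short solitary H3K27me3 peaks are H3K27me3 sites of control cells that are under 1000 bp long, have a height above 0, lie more than 10 kb from any other H3K27me3 control peak and overlap no control peak of the other 6 antibodies. These peaks were chosen by the length, height and position of control peaks and numbered 2080 of 35368 H3K27me3 control peaks (5.88%), in a series of 227479 peaks over 14 libraries. The values come from chromatin immunoprecipitation with sequencing (ChIP-seq) of DU145 cells, a long-established line of human prostate cancer. Control cells carried a scramble construct and knockdown cells a stable knockdown of EED, both selected with puromycin. The titles of the knockdown libraries share 1 construct label, and the construct and the loss of EED cannot be told apart. The 7 antibodies were against H3K27me3, RING1A, RING1B, BMI1, EED and ubiquitylated histone H2A (uH2A), where a rabbit and a mouse antibody were both used, and each gave 1 library per cell line. With 1 library per group there is no replicate check, no p-value is given, and the 95% intervals cover counting error only and treat peaks as independent.

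H3K27me3, trimethylation of lysine 27 on histone H3, is placed by Polycomb repressive complex PRC2, of which EED is a core subunit. EED also binds the mark, which helps PRC2 spread it into broad domains over silent developmental genes. The second complex, PRC1, carries the ubiquitin ligases RING1A and RING1B, which place uH2A with BMI1 as a partner subunit. PRC1 can be recruited by H3K27me3 through its chromobox subunits. A short peak with no neighbour and no other antibody is therefore unlike the textbook Polycomb domain, in which these features lie together. Positions are hg19, and regions are given by position because genes and sequences of that build were not used here.

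The rule removed peaks mainly through the distance to a neighbour. Of 35368 peaks, 33882 were under 1000 bp, and 32487 of these had a height above 0. Only 2447 of the latter had no other H3K27me3 peak within 10 kb, and 2080 of the 2447 overlapped no other antibody. RING1A was the antibody found most often, with 245 of the 2447 solitary short peaks on a RING1A control peak (10.0%), followed by BMI1 with 186 (7.60%) and RING1B with 113 (4.62%). The rabbit and mouse uH2A antibodies overlapped 92 and 71, and EED overlapped 39 (1.59%). The peaks removed at the last step, 367 in all, are called co-occupied solitary peaks here. Short H3K27me3 peaks that met every criterion except the distance, 25868 in all, are called crowded peaks.

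The height criterion worked as a chromosome filter. All 1430 H3K27me3 control peaks of height 0 lay on chromosomes 22, X and Y, and every H3K27me3 control peak on those chromosomes had a height of 0. The same held for the RING1A, RING1B and BMI1 lists of both cell lines and the H3K27me3 knockdown list. In the 6 lists of EED and uH2A, 0 peaks had a height of 0. The short solitary peaks therefore came from chromosomes 1 to 21 alone. On chromosomes 22, X and Y, 130 H3K27me3 peaks of height 0 met the other criteria, 27, 90 and 13 of them respectively.

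Peaks that were short, solitary and free of other antibodies were rarer for H3K27me3 than for most other antibodies. With the height criterion left out and the other lists of the same cell line used, 6.25% of H3K27me3 control peaks were short, solitary and alone. The share was 15.7% for RING1A, 10.9% for BMI1, 20.8% for EED, 15.8% for rabbit uH2A and 15.5% for mouse uH2A, and only RING1B was lower at 2.31%. In knockdown cells 155 of 4205 H3K27me3 peaks met these criteria (3.69%). The share was also lower in knockdown than in control cells for RING1A (8.13%) and BMI1 (10.0%). It was higher for RING1B (7.30%), EED (31.8%), rabbit uH2A (42.0%) and mouse uH2A (45.0%). By distance alone, 7.44% of H3K27me3 control peaks were solitary, the lowest share of the 7 control lists, against 12.3% in knockdown cells. For RING1B these shares were 17.8% and 17.7%. The remaining antibodies moved in the same direction by both measures. The lists also differed in length, with 27077 control and 11327 knockdown peaks for rabbit uH2A and 33879 and 7160 for mouse uH2A, and the part of this in the shares was not tested.

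Height and length were among the values that chose these peaks and are given as a description. Height is the caller's own signal for a peak, and its unit is not stated. The lowest short solitary peak had a height of 24, the median was 35.0 with quartiles at 31.8 and 39.5, and the highest was 118.8. The crowded peaks had a median of 40.8 and ran from 19.5 to 808.0, and the co-occupied solitary peaks had a median of 38.5 and ran from 25 to 779.3. The 3 ranges overlap at the low end, and the short solitary peaks lack the tail of tall peaks. Divided at the quartiles of all H3K27me3 peaks of height above 0, 52.2% of the short solitary peaks (1086) fell in the lowest class, 28.2% in the next, 15.9% in the third, and 3.70% (77) in the tallest class, above 54.8. Of the crowded peaks, 20.5% were in the tallest class.

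**Figure D1:**
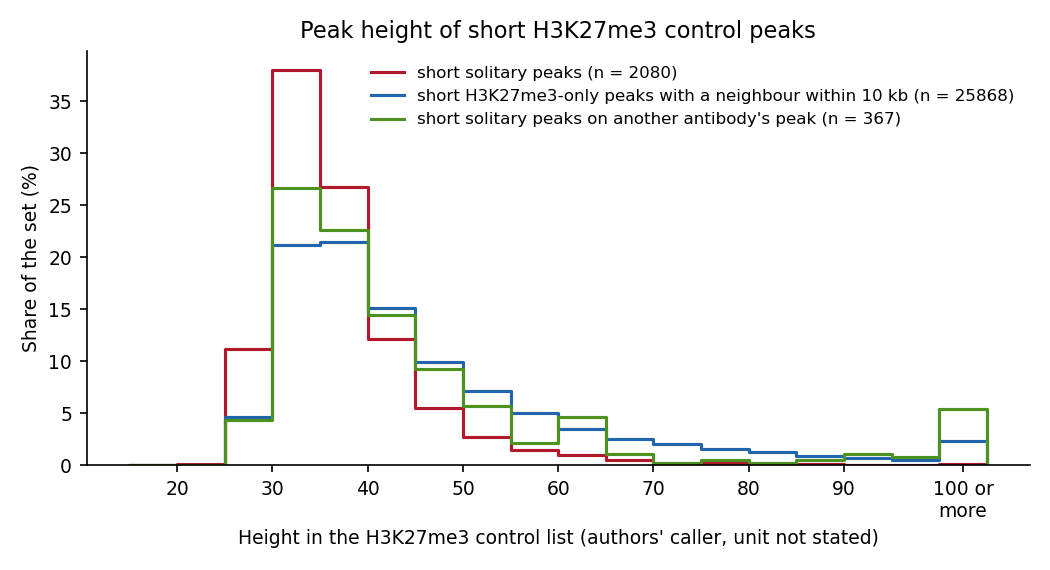
Peak height in the H3K27me3 control list (horizontal axis, caller's unit, in steps of 5) against the share of each set in that step (vertical axis, %), for short solitary, crowded and co-occupied solitary peaks. The largest step of the short solitary peaks, 38.0%, is that from 30 to 35, and 2 of 2080 reach 100 or more.

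Most were also very short. A length of 75 bp, the shortest in the list, was shared by 489 of them (23.5%), 404 had 100 bp and 319 had 125 bp. The median length was 125 bp against 175 bp for crowded and 150 bp for co-occupied solitary peaks, and the longest had 925 bp. Lengths are multiples of 25 bp in the list. Few lay near the length limit: 3 had 750 to 975 bp, with heights from 67.8 to 102.0, and 5 solitary H3K27me3-only peaks just outside it, at 1000 to 1225 bp, had heights from 55.0 to 85.5. None of these 8 was kept, that is, overlapped an H3K27me3 knockdown peak.

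The nearest H3K27me3 control peak was a median of 30.2 kb away. Of the short solitary peaks, 726 (34.9%) had it between 10 and 20 kb, 579 (27.8%) between 20 and 50 kb, 277 (13.3%) between 50 and 100 kb and 498 (23.9%) beyond 100 kb. Median height was 35.0, 34.8, 34.0 and 35.0 in these 4 classes. Just inside the distance limit, 128 peaks at 10 to 11 kb had a median height of 34.9 and 0 of them were kept. Just outside, 152 crowded peaks at 9 to 10 kb had a median of 35.6 and 1 was kept. The most isolated peak, on chromosome 13 at 61199001 to 61199100, had its nearest H3K27me3 neighbour 7.71 Mb away and a height of 31.8. The next were on chromosome 4 at 130286101 to 130286175 (7.60 Mb, height 29.0) and on chromosome 3 at 108088526 to 108088600 (5.15 Mb, height 25). None of these 3 had a knockdown peak of any antibody on it.

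Density differed between chromosomes. Over chromosomes 1 to 21 there were 0.735 short solitary peaks per Mb and 12.0 H3K27me3 control peaks per Mb. Short solitary peaks ranged from 0.476 per Mb on chromosome 4 to 1.14 per Mb on chromosome 7, a 2.40-fold range. All H3K27me3 control peaks ranged from 5.03 per Mb on chromosome 13 to 33.2 per Mb on chromosome 19, a 6.59-fold range. As a share of the H3K27me3 peaks of a chromosome, short solitary peaks were highest on chromosome 13 (99 of 579, 17.1%) and chromosome 3 (130 of 1074, 12.1%). They were lowest on chromosome 19 (56 of 1960, 2.86%) and chromosome 16 (48 of 1569, 3.06%). The distance criterion limits how many short solitary peaks a dense stretch can hold, so the narrower range of their density and part of the order of the shares are set by the rule.

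**Figure D2:**
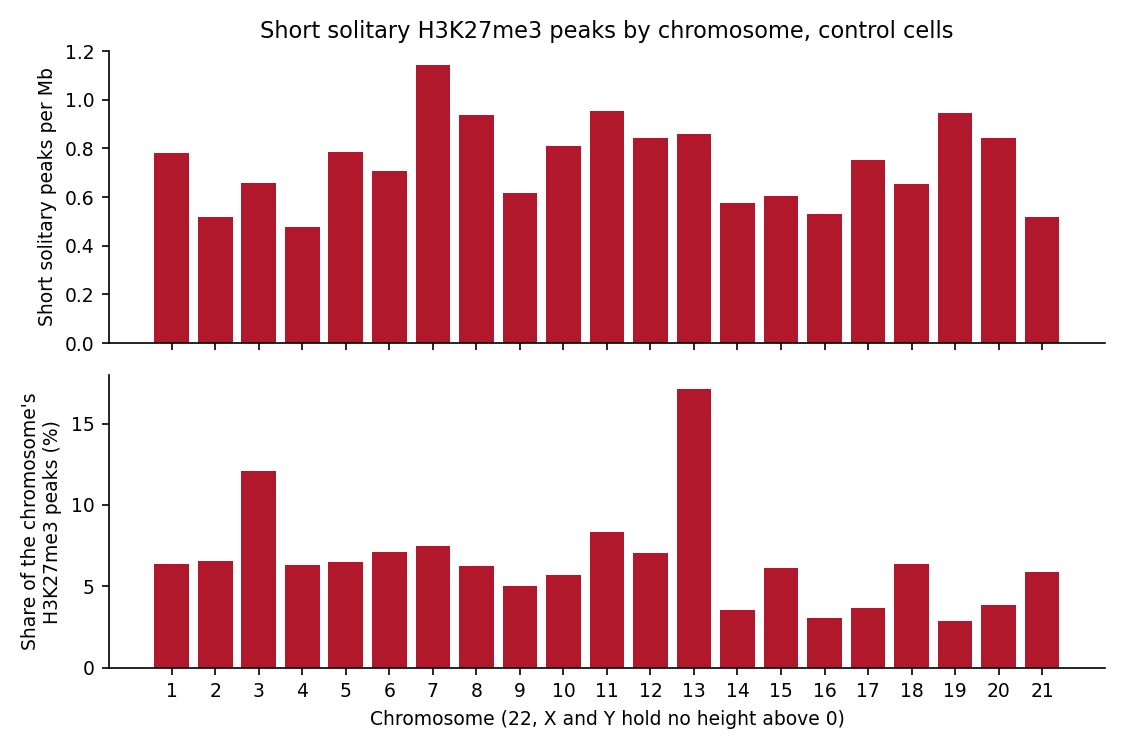
Short solitary H3K27me3 peaks per Mb of chromosome (upper bars) and as a share of all H3K27me3 control peaks of the chromosome in % (lower bars), for chromosomes 1 to 21. Chromosome 7 has the highest density, 1.14 per Mb, and chromosome 13 the highest share, 17.1%.

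Many lay in the same 1-Mb window as others. The 2080 peaks fell in 998 of 2842 windows of 1 Mb, 521 windows held 1, and 87 windows with 5 or more held 575 of them (27.6%). Windows named here were chosen after their counts were seen. The fullest, on chromosome 13 at 102000001 to 103000000, held 16 short solitary peaks among 34 H3K27me3 control peaks that covered 6.48 kb. Their heights ran from 26.0 to 43.0 with a median of 29.9. The window held 0 control peaks of RING1A, RING1B, BMI1 and EED, 2 of rabbit uH2A and 1 of mouse uH2A. A window on chromosome 1 at 216000001 to 217000000 held 13 among 68 H3K27me3 peaks that covered 11.3 kb, with heights from 31.8 to 49.8 and 1 control peak of the other antibodies, of rabbit uH2A. A window on chromosome 5 at 110000001 to 111000000 held 12 among 65, with heights from 30.8 to 63.5. Control peaks of the other antibodies there were 5 of RING1A, 1 of BMI1 and 3 of each uH2A antibody. In each of the 3 windows H3K27me3 control peaks were more frequent than the 12.0 per Mb of chromosomes 1 to 21, and 0 H3K27me3 knockdown peaks were listed. Of all 2080 short solitary peaks, 79.1% had no H3K27me3 knockdown peak within 1 Mb. The share of all windows without one was not computed, so the 0 is not read as a trait of these windows.

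The next question was whether these sites still carried H3K27me3 after EED knockdown. Of the 2080 short solitary peaks, 9 overlapped an H3K27me3 knockdown peak, or 0.433% (Clopper-Pearson interval 0.198 to 0.820). Over all H3K27me3 control peaks the share was 3.81%, and 3.21% over those of height above 0. Within 1 kb, 13 short solitary peaks (0.625%) had an H3K27me3 knockdown peak, against 4.69% of all H3K27me3 control peaks, and within 10 kb 19 (0.913%) had one, against 7.19%. Over those of height above 0 these shares were 4.08% and 6.60%. The median distance to the nearest H3K27me3 knockdown peak was 5.25 Mb, and 1646 of the 2080 (79.1%) had none within 1 Mb. The H3K27me3 knockdown list held 4205 peaks, and these long distances were not computed for other H3K27me3 control peaks. They are therefore not read as a trait of the short solitary peaks. The kept share was 0.413% at 10 to 20 kb from the nearest neighbour, 0.691% at 20 to 50 kb, 0% (0 of 277) at 50 to 100 kb and 0.402% beyond.

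Whether a difference from crowded peaks was detectable depended on how neighbouring peaks were counted. Crowded peaks were kept at 0.619% (160 of 25868), a difference of -0.186 percentage points with a Newcombe interval of -0.415 to 0.212, which includes 0. With H3K27me3 peaks within 1000 bp merged first, the difference was -0.408 points (-0.689 to -0.0274), which excludes 0. Its direction turned with heights at or above the median (0.478 points) and with peaks within 1000 bp counted as shared (0.0639), both with intervals that include 0. The latter setting also counted a peak as kept with an H3K27me3 knockdown peak within 1000 bp. Peaks shared with another antibody differed far more. Co-occupied solitary peaks were kept at 23.98% (88 of 367), a difference of -23.5 points (-28.2 to -19.4). That gap was present in all 4 height classes, from -14.3 points (-22.9 to -8.27) in the third class to -46.1 points (-58.45 to -32.2) in the tallest. Against crowded peaks the tallest class was the exception. There, 3 of 77 short solitary peaks were kept (3.90%) and 53 of 5310 crowded peaks (0.998%), a difference of 2.90 points (0.318 to 9.85), which rests on 3 peaks. In the 3 lower classes the interval of the difference included 0.

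**Figure D3:**
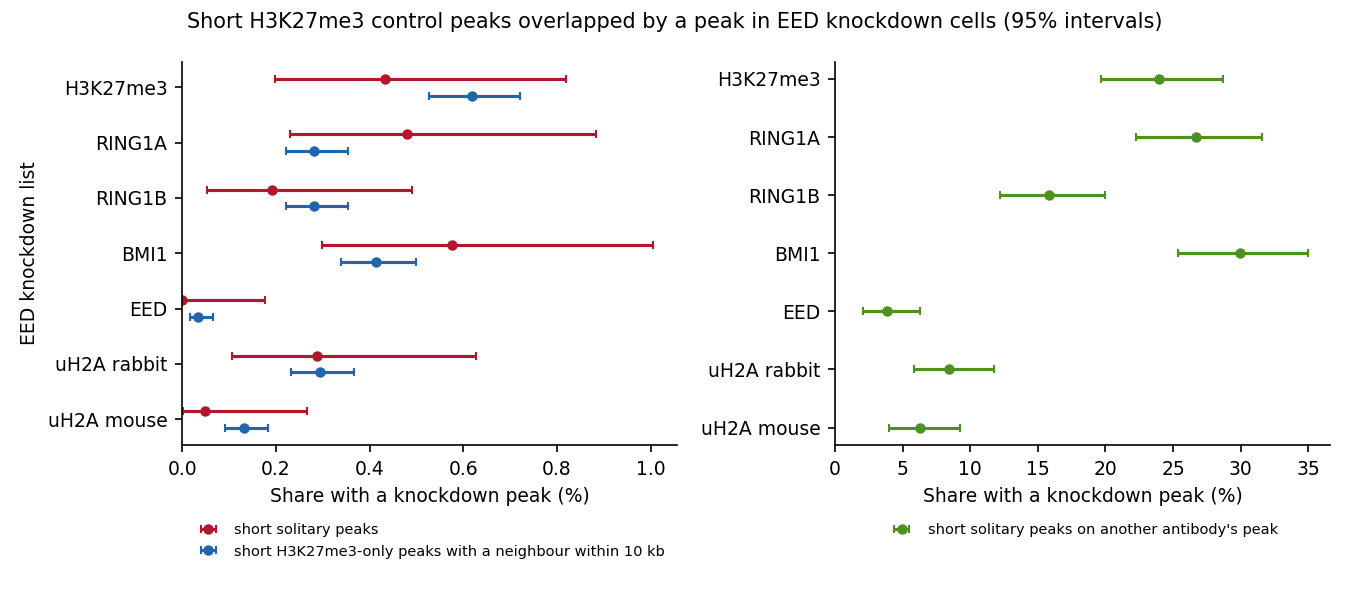
Share of each set with a peak of each antibody in EED knockdown cells (horizontal axes, %, different scales in the 2 panels), as points with 95% Clopper-Pearson intervals. Short solitary and crowded peaks (left) have shares of at most 0.619%, and co-occupied solitary peaks (right) run from 3.81% for EED to 29.97% for BMI1.

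The PRC1 proteins were listed in knockdown cells at few of these sites, none of which had a control peak of theirs by the rule. BMI1 knockdown peaks overlapped 12 of 2080 short solitary peaks (0.577%, 0.298 to 1.01), against 3.42% of all H3K27me3 control peaks of height above 0. RING1A overlapped 10 (0.481%, against 2.85%) and RING1B 4 (0.192%, against 1.97%). The shares over all peaks include peaks with a control peak of these proteins, which the rule kept out of the short solitary peaks. For crowded peaks the shares were 0.414%, 0.282% and 0.282%, and each difference from the short solitary peaks had an interval that included 0. The RING1A difference was 0.199 points (-0.0325 to 0.605) and the BMI1 difference 0.163 points (-0.0978 to 0.598).

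EED and uH2A knockdown peaks were also found at few of the sites. EED knockdown peaks overlapped 0 of 2080, against 0.563% of all those of height above 0. Taken as 3 of the total, the 0 allows a share of up to 0.144%, and the Clopper-Pearson upper limit is 0.177%. Rabbit uH2A overlapped 6 (0.288%, against 2.84%) and mouse uH2A 1 (0.0481%, against 1.35%). Any of the 6 antibodies other than H3K27me3 was found on 23 (1.11%, 0.702 to 1.65), against 7.55% of all H3K27me3 control peaks. Crowded peaks gave 1.00%, a difference of 0.105 points (-0.285 to 0.664), and co-occupied solitary peaks 43.9%. The contrast with co-occupied peaks is partly set by the rule. It required a control peak of these antibodies in co-occupied peaks and none in short solitary peaks. The 7.55% also includes peaks with such a control peak. In all, 2057 of 2080 short solitary peaks (98.9%) carried no peak of any of the 7 antibodies in knockdown cells. That share was 98.8% for crowded peaks (25565 of 25868), so it is not particular to the short solitary peaks. It was 92.2% for all H3K27me3 control peaks and 92.8% for those of height above 0.

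The 23 sites were also counted by library set. The libraries of RING1A, RING1B, BMI1 and H3K27me3 share a description of the culture and a style of chromosome names, and those of EED and uH2A share another. Of the 23, 16 had a PRC1 protein, 7 had uH2A, and 0 had both. Among peaks with any of the 6 antibodies in knockdown cells, 12.8% (305 of 2375) of all H3K27me3 control peaks of height above 0 had both, and 1.93% (5 of 259) of crowded peaks, so 0 of 23 is near the crowded share. The 9 sites with H3K27me3 were all among the 16. Each of the 9 lay on a BMI1 knockdown peak, 4 on RING1A, 3 on RING1B and 0 on EED or uH2A. Over all kept H3K27me3 control peaks of height above 0, 84.8% (924 of 1089) lay on a BMI1 knockdown peak, and for crowded peaks it was 53.8% (86 of 160). The same shares were 71.1% and 36.2% for RING1A, 58.4% and 42.5% for RING1B, and 21.4% and 5.62% for EED or uH2A. An effect of the library set cannot be told apart from that of the antibodies it holds. The tallest short solitary peak with rabbit uH2A in knockdown cells was on chromosome 12 at 117760151 to 117760475 (height 49.0, uH2A height 33.2). The single site with mouse uH2A was on chromosome 7 at 28893351 to 28893550 (height 49.5, uH2A height 37.3), where a mouse uH2A control peak lay 150 bp away.

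The 9 kept sites ran from 29.0 to 83.0 in control height, with a median of 46.3, and the 2071 lost sites from 24 to 118.8 with a median of 35.0, so the ranges overlapped. The tallest kept site, on chromosome 3 at 195222751 to 195223450, had an H3K27me3 height of 83.0 in control and 57.0 in knockdown cells, and a knockdown BMI1 height of 50. The knockdown peak there was 150 bp long against 700 bp in control cells. On chromosome 18 at 15165376 to 15165625, the heights were 75 and 61.0, and knockdown peaks of RING1A (61.0) and BMI1 (49.0) lay on the site, 3 antibodies in all. That was the most at any short solitary peak, and 7 of them had 3. No control peak of BMI1 lay nearer than 14250 bp to it. On chromosome 17 at 61534726 to 61534950, H3K27me3 was 62.0 in control and 71.0 in knockdown cells, with RING1A and BMI1 both at 56.0. On chromosome 10 at 42625301 to 42625500, it was 52.0 and 102.0, with BMI1 at 56.0 and RING1B at 41.0. On chromosome 14 at 33363001 to 33363075, it was 46.3 and 74.9, with BMI1 at 82.6. The first 2 of these 5 sites were lower and the other 3 higher in the knockdown list, and heights were not normalised between libraries.

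The other 4 kept sites, named because all 9 are described, lay on chromosomes 1 and 2. On chromosome 2 at 91614601 to 91614800, H3K27me3 height was 41.0 in control and 391.0 in knockdown cells, and at 90393126 to 90393275 it was 29.0 and 356.0. The knockdown peaks at these 2 sites were 500 and 475 bp long, and BMI1 had a height of 182.0 at both. On chromosome 1 at 148517401 to 148517525, the heights were 32.0 and 74.0, and at 120636351 to 120636425 they were 29.0 and 43.0. All 4 were higher in the knockdown list, which made 7 of 9, and 6 of 9 were longer there. The 9 were picked by a called knockdown peak from a set without the tail of tall control peaks, which can favour this direction. The same counts were not made for other kept peaks. The median height of the H3K27me3 knockdown list, among peaks of height above 0, was 61.4, against 41.3 in the control list. The surroundings of the 2 sites on chromosome 2 were crowded beyond 10 kb: each had 40 other H3K27me3 control peaks within 100 kb, and 43 and 57 H3K27me3 knockdown peaks. The site at 120636351 on chromosome 1 and that on chromosome 3 had 0 other H3K27me3 control peaks within 100 kb. The kept sites on chromosomes 2, 10 and 18 lie near centromeres, by general knowledge of the build and not by a distance computed here. This list need not be complete.

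**Figure D4:**
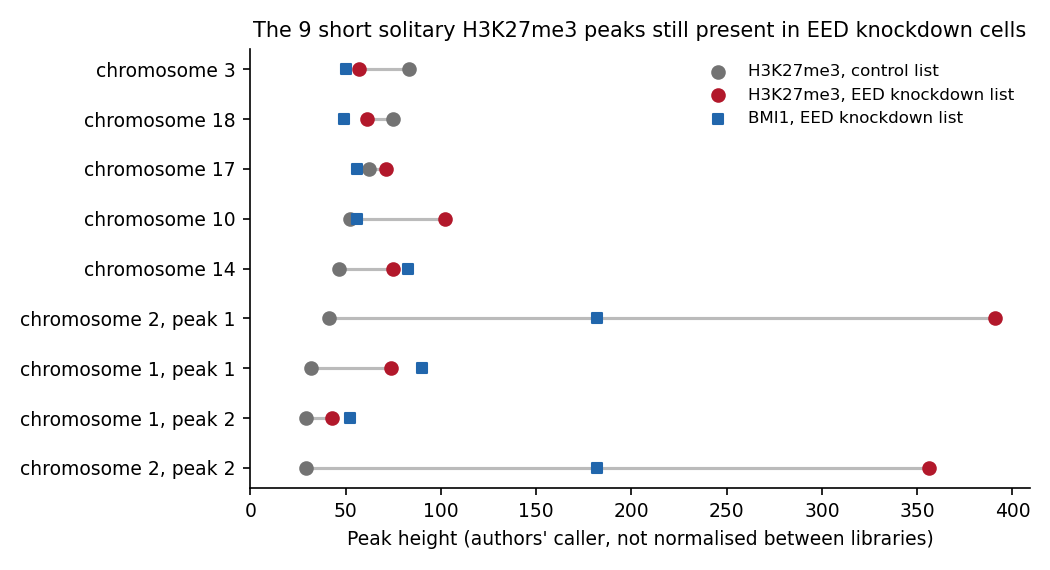
Heights (horizontal axis, caller's unit, not normalised between libraries) of the 9 short solitary H3K27me3 peaks that overlap an H3K27me3 knockdown peak, in the order of their control height. H3K27me3 is higher in the knockdown list at 7 of 9 sites, a direction that the choice of sites can favour, and the 2 sites on chromosome 2 reach 391.0 and 356.0.

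The 5 tallest short solitary peaks were all lost, like most of the tallest height class, whose kept share was the highest (3 of 77, 3.90%). The tallest of all, on chromosome 4, spanned 26211126 to 26211450 and had a height of 118.8. Chromosome 11 held the next 2, from 19735026 to 19735900 (height 102.0) and from 4265501 to 4265750 (height 93.8). The fourth was a peak of chromosome 17 (38020276 to 38020750, height 88.5), and the fifth a peak of chromosome 12 (45268851 to 45269600, height 86.0). None of these 5 tallest peaks had a knockdown peak of any antibody on it. The nearest H3K27me3 knockdown peak was 589675 bp from the third, the smallest such distance of the 5. The peak on chromosome 12 lay 925 bp from a RING1A and 875 bp from a mouse uH2A control peak. On chromosome 7, the densest, the tallest peak had a height of 71.0 (121534426 to 121534725) and no knockdown peak of any antibody.

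Other antibodies were nearby without overlap at a minority of the sites. A control peak of at least 1 of the 6 lay within 10 kb of 624 short solitary peaks (30%), which left 1456 (70%) with none. RING1A was the most frequent, within 10 kb of 404 (19.4%), then rabbit uH2A with 335 (16.1%), mouse uH2A with 286 (13.8%), EED with 179 (8.61%), BMI1 with 168 (8.08%) and RING1B with 30 (1.44%). All 6 shares were lower than for crowded peaks, which had RING1A at 36.8% and rabbit uH2A at 41.4%. RING1A also had the longest control list of the 6, with 56011 peaks, and RING1B the shortest, with 5155. The share near any position of the genome was not computed, so the 30% is not read as an excess or a lack.

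In knockdown cells 286 short solitary peaks (13.8%) had another antibody within 10 kb, most often rabbit uH2A with 213 (10.2%). Mouse uH2A followed with 70 (3.37%), BMI1 with 36 (1.73%), RING1A with 17 (0.817%), and RING1B and EED with 10 each (0.481%). Over all H3K27me3 control peaks the shares were higher, at 28.1% for rabbit uH2A, 11.2% for mouse uH2A and 9.62% for BMI1. They were 6.49% for RING1A, 4.39% for RING1B and 4.26% for EED. Rabbit uH2A also had the longest knockdown list of the 6, with 11327 peaks. The rule bars overlaps from the control numbers of short solitary and crowded peaks, and the knockdown numbers include them. Of the short solitary peaks near a knockdown peak, those overlapped were 10 of 17 for RING1A, 12 of 36 for BMI1 and 4 of 10 for RING1B. They were 6 of 213 for rabbit uH2A, 1 of 70 for mouse uH2A and 0 of 10 for EED. The ratios that follow therefore set unlike counts side by side. The number near RING1A was 0.0421 of that in control cells, and the whole RING1A list was 0.0727 of its control length. For rabbit uH2A the number near was 0.636 of the control number and the whole list 0.418, and for EED 0.0559 and 0.105. For crowded peaks the ratio was 0.598 for rabbit uH2A and 0.0695 for RING1A, which were also the highest and the lowest of the 6. For EED it was 0.125, above the ratio of the whole list, where that of short solitary peaks was below it. The knockdown shares of short solitary peaks were lower than those of crowded peaks for all 6 antibodies, with the largest difference for rabbit uH2A, -14.5 points (-15.8 to -13.0), and the smallest for RING1B, -0.725 points (-0.986 to -0.304).

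**Figure D5:**
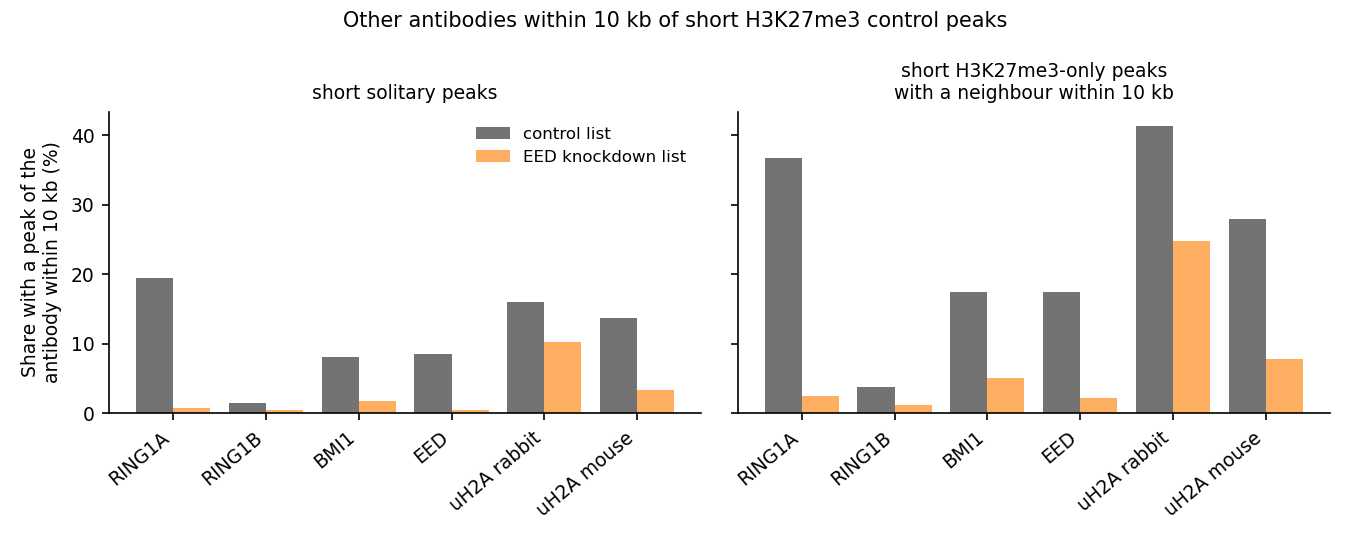
Share of short solitary peaks (left) and crowded peaks (right) with a peak of each other antibody within 10 kb (vertical axis, %), in control and EED knockdown lists. For short solitary peaks RING1A goes from 19.4% to 0.817% and rabbit uH2A from 16.1% to 10.2%. Overlaps are barred from the control shares by the rule and are included in the knockdown shares.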

How the data were processed

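ChIP-seq peak lists of 14 libraries were used, 1 for each of 7 antibodies in each of 2 cell lines. The submitters' processing notes name Bowtie and the build hg19, and the lists carry the name of the HPeak caller. Settings, versions and any input library are not stated there. The deposited lists give position, length, an offset and a height, which is taken as the signal the authors' caller wrote, and a negative score that was not used. Read totals are not stated, depth is unknown, and only the length of the lists, 1372 to 56011 peaks, limits the precision. Numbers after the autosomes in the lists of EED and uH2A were assumed to be X and Y.

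Overlap meant at least 1 bp in common, and distance the bases between peaks. Chromosome lengths were the largest end in any list. Shares carry Clopper-Pearson and differences of shares Newcombe intervals, at 95%, for counting error only. A count of 0 allows 3 of the total. The functions were tested on simulated lists with planted peaks. The peaks, comparison sets and lists were chosen with earlier results of these data known. Regions named are the 5 tallest and 5 tallest kept peaks, the tallest on a knockdown peak of each other antibody, the tallest of the peaks with most antibodies, the 3 most isolated and the tallest of the densest chromosome. Chromosome 8 is counted but not named. Python 3.11.15, numpy 2.4.6, pandas 2.3.3, scipy 1.17.1 and matplotlib 3.10.9 were used.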

Additional observations from a re-analysis of the deposited data

Results flagged for a closer look

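The 130 H3K27me3 control peaks of height 0 that met every other criterion stand outside the 2080 peaks described above, because their height is listed as 0. Their median length was 125 bp, the same as that of the short solitary peaks. An H3K27me3 knockdown peak overlapped 0 of them, while 258 of all 1430 peaks of height 0 (18.04%) were kept. Taken as 3 of the total, the 0 allows a share of up to 2.31%, and the Clopper-Pearson upper limit is 2.80%. BMI1 knockdown peaks overlapped 2 of the 130 and RING1A 1.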

How the results depend on the processing

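No paired analysis was possible because each group has 1 library. The number of short solitary peaks was 3265 with a distance of 5 kb, 775 with 50 kb and 408 with heights at or above the median, and 1890 to 2373 under the other 8 alternatives. With heights at or above the median, 1.23% kept H3K27me3 and 2.21% had another antibody in knockdown cells. Under the other 10 alternatives these shares were 0.258% to 0.582% and 0.774% to 1.53%. The difference from crowded peaks turned to 0.478 points with heights at or above the median and to 0.0639 with peaks within 1000 bp counted as shared, both with intervals that include 0. In the latter, knockdown peaks within 1000 bp also counted as overlapping. It was -0.408 points (-0.689 to -0.0274) with H3K27me3 peaks within 1000 bp merged first, the only alternative whose interval excluded 0. The cause was not tested. The difference from co-occupied solitary peaks was -27.6 to -16.7 points over all 11 alternatives. The other alternatives were a length limit of 500 bp, an overlap of at least 50%, peaks of height 0 ignored and autosomes only. The last 2 gave the same values as reported, which the height criterion fixed in advance. The peaks compared lay on chromosomes that hold no peak of height 0 and are neither X nor Y. These 2 are therefore no check of the results, and they are among the 8, 10 and 11 alternatives counted above. After seeing the data, 2 alternatives were added, peaks of any height and peaks outside high-signal windows. The latter are stretches of 100 kb, and those beside them, where 2 or more other antibodies reach over 10 times their library's median height. They held 9 short solitary peaks, 1 of them kept. Outside them, 63 of 337 co-occupied solitary peaks were kept, against 88 of 367 as reported. The difference from them was -18.3 points (-22.8 to -14.5) there, against -23.5 as reported. Of the crowded peaks, 126 of 25783 were kept outside these windows, against 160 of 25868 as reported.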
